A study of Mus musculus with 6 samples.

Results

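The enzymes described here conjugate or hydrolyse drugs, bile acids, steroids and other lipophilic compounds: the UDP-glucuronosyltransferases (Ugt1a, Ugt2 and Ugt8 genes), the cytosolic sulfotransferases (Sult), the glutathione S-transferases (Gsta, Gstm, Gstp, Gstt, Gsto and Gstk) and the carboxylesterases (Ces). Members were chosen by gene symbol alone, as every row of the expression table whose symbol begins with one of these 11 family names followed by a family number, which gave 67 of 18477 genes. They comprised 8 Ugt1a, 9 Ugt2, 1 Ugt8, 10 Sult, 4 Gsta, 7 Gstm, 3 Gstp, 4 Gstt, 2 Gsto, 1 Gstk and 18 Ces genes. The study asked how the gut bacterium Bacteroides vulgatus (B. vulgatus) affects colitis in mice. Bulk RNA from colon tissue was sequenced from 3 mice of the DSS group and 3 mice of the DSS+BV group, 1 library per mouse. All were male C57BL/6 mice of 6 to 8 weeks, and all drank 2% (w/v) dextran sulfate sodium (DSS), a polymer that injures the colon epithelium, for the last 7 days of a 14-day experiment. The DSS mice received PBS by gavage once a day for 14 days, and the DSS+BV mice received a B. vulgatus strain of the American Type Culture Collection, suspended in anaerobic PBS, in the same way. No mice without DSS were analysed here, so the values compare DSS+BV with DSS and not with a healthy colon. Whole colon tissue holds epithelium, stroma, muscle and immune cells, and fewer cells of a type and less RNA per cell cannot be told apart in such libraries.

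Phase II enzymes attach a polar group to a compound so that it can be exported into the gut lumen, bile or urine. Glucuronosyltransferases sit in the endoplasmic reticulum and use UDP-glucuronic acid, sulfotransferases use the sulfate donor PAPS in the cytosol, and glutathione S-transferases join glutathione to electrophiles, including products of lipid peroxidation. Carboxylesterases cleave esters and amides in the lumen of the endoplasmic reticulum and act on prodrugs, triacylglycerols and cholesteryl esters. In the intestine these enzymes are made mainly by absorptive epithelial cells and form the first metabolic barrier to what enters from the gut.

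The libraries held 15293276 to 17254343 expected counts, and levels are given as CPM, which are counts relative to the library total after scaling by TMM factors. Replicates within a group were all further apart than counting noise allows (chi-square of 42.7 to 118 for each degree of freedom), and none were merged. The lists of cell type markers differed between the groups. All 16 epithelium markers tested were higher in DSS+BV, 6 of them without overlap, beside 6.37% of all tested genes. Their summed level ranged from 14160 to 17078 CPM among DSS mice and from 18893 to 23942 CPM among DSS+BV mice. The 11 tested neutrophil markers were all lower in DSS+BV, 9 of them without overlap, beside 11.3% of all tested genes. Of these markers 6 were called, beside 0.0892% of all tested genes called lower. The list summed to between 222 and 1067 CPM among DSS mice and between 32.5 and 330 CPM among DSS+BV mice. Much of these sums came from Ly6g, whose groups overlapped. It measured 485, 76.1 and 854 CPM in the DSS mice against 303, 215 and 19.1 CPM in the DSS+BV mice. S100a8, a called marker, measured 46.3, 30.4 and 39.1 CPM in the DSS mice against 1.85, 1.47 and 2.09 CPM in the DSS+BV mice. Elane, also in the list, was at 0 in every library. Of the 15 hepatocyte markers, 6 were tested, and the defining marker Alb reached at most 0.79 CPM. Of the 6, 4 were lower in DSS+BV, 3 of them without overlap, and 2 were higher, 1 without overlap. The list summed to between 136 and 222 CPM among DSS mice and between 43.8 and 75.5 CPM among DSS+BV mice. Tat ranged from 48.1 to 127 CPM in the DSS mice against 28.9 to 33.9 CPM in the DSS+BV mice. Hp ranged from 42.1 to 82.1 CPM in the DSS mice against 0.57 to 11.3 CPM in the DSS+BV mice. Genes of proximal and distal colon position varied between single libraries, since Hoxb13, a gene of the distal colon and rectum, was at 211, 36.4 and 125 CPM in mice 1, 2 and 3 of the DSS group against 248, 112 and 0 CPM in mice 1, 2 and 3 of the DSS+BV group. The labels do not say which stretch of colon was taken.

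No gene of the 67 was called differentially expressed, at an adjusted p-value under 0.05 with an absolute log2 fold change over 1, by edgeR's quasi-likelihood test after Benjamini-Hochberg adjustment over 14579 tested genes. Across all tested genes the same rule called 13 lower (0.0892%) and 0 higher (0%) in DSS+BV. The low-count filter kept 43 of the 67 members. Of these 43, 36 had a higher and 7 a lower fitted value in DSS+BV (26 and 17 when libraries were scaled on the epithelium markers), with a median log2 fold change of 0.67, while 7078 of all tested genes were higher and 7501 lower, with a median of -0.01. The epithelium scaling moved the median of all tested genes to -0.49 and that of the members to 0.22, which is 0.72 above it. At an unadjusted p under 0.05 by edgeR's quasi-likelihood test, 9 members were higher, 20.9% of those tested beside 3.4% of all tested genes, and 2 were lower, 4.65% beside 9.12%. With the epithelium scaling 2 members were higher and 3 lower at that threshold, beside 0.46% and 22.1% of all tested genes. With 1 library left out the number of members higher ranged from 3 without DSS+BV 2, beside 1.08% of all tested genes, to 28 without DSS 2, beside 8.6%. In 5 members every DSS+BV value lay above every DSS value, 11.6% beside 6.37% of all tested genes, and in 1 member, Sult5a1, every DSS+BV value lay below, 2.33% beside 11.3%. With the epithelium scaling these were 2 members above, beside 0.322%, and 3 below, beside 29.7%. DESeq2, run as the alternative test, called 2 members higher, Ugt8a and Sult2b1, which is 3.77% of the 53 members it could adjust beside 0.279% of 16155 genes, and 0 members lower beside 1.73%. Ugt8a had 206 and 347 counts in DSS+BV 2 and DSS+BV 3 and at most 10 in any other library. Its call rests on the libraries in which it was high and does not count as a test of the groups. Permuting 3 mice against 3 exactly gives no two-sided p below 0.1 for one gene, so single genes are described by their values, their overlap and the model tests.

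The members varied more between mice than most genes. Their median standard deviation of log2 CPM over the 6 libraries was 0.85, against 0.32 for all tested genes, and 21 of the 43 (48.8%) were within the top 10% of all tested genes by that measure. The median biological coefficient of variation was 42.5% for the members and 25.3% for all tested genes. In 10 of the 43 tested members the highest library was at 10 times or more the lowest. The genes together took 0.177%, 0.380% and 0.215% of the counts in mice 1, 2 and 3 of the DSS group against 0.279%, 0.474% and 0.574% in mice 1, 2 and 3 of the DSS+BV group.

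The spread had a shared shape, which the plot of deviations by library shows. DSS 2 was the highest DSS library in 32 of the 43 tested members (74.4%, beside 31.1% of all tested genes), and DSS+BV 1 was the lowest DSS+BV library in 26 (60.5%, beside 38.8%). DSS 1 and DSS 3 were the lowest libraries of all in 27 members (62.8%, beside 14.1%). DSS+BV 3 was the highest of the 6 libraries in 23 members, and DSS 1 was the lowest in 19 and DSS 3 in 16. Between DSS 1 and the DSS+BV libraries, 37, 38 and 37 of the 43 members were higher in DSS+BV 1, 2 and 3. Between DSS 2 and the same libraries, the numbers were 14, 26 and 25. DSS 2 lay above DSS+BV 1 in 29 of the 43 members (67.4%, beside 50.5% of all tested genes).

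**Figure D1:**
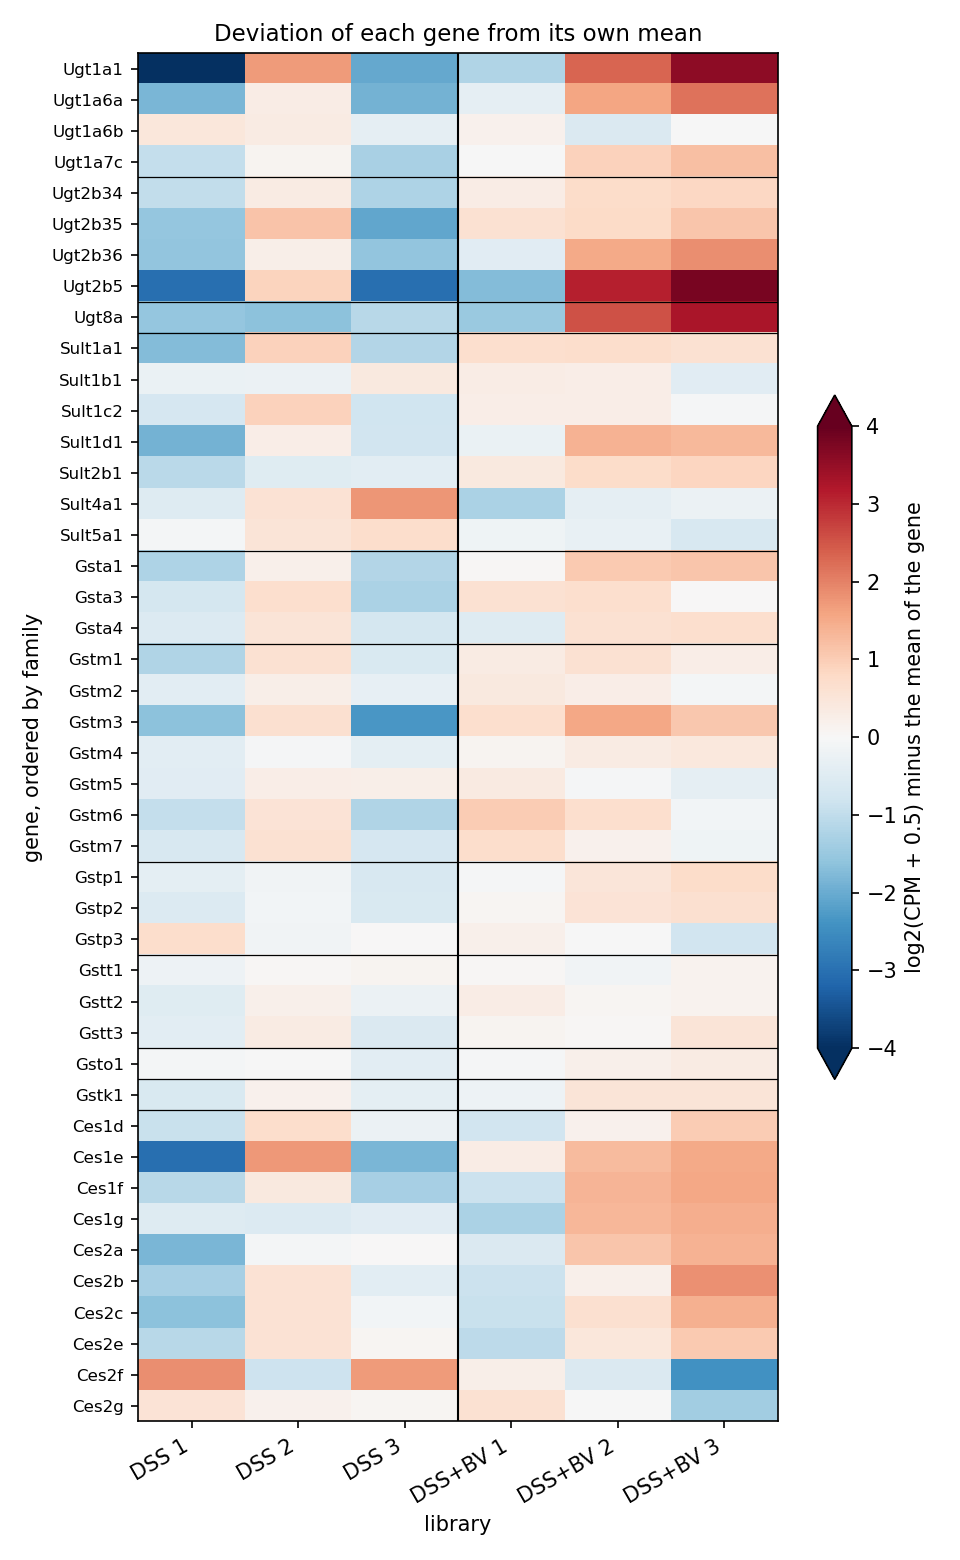
Deviation of each of the 43 tested genes and Ugt8a from its own mean over the 6 colon libraries, on the scale log2(CPM + 0.5), with columns for the libraries, rows for genes ordered by family, red for above and blue for below the mean, and a vertical line between the DSS and DSS+BV groups. DSS 1 and DSS 3 are mostly blue and DSS+BV 2 and DSS+BV 3 mostly red, while DSS 2 is red for many genes and Ces2f runs the other way.

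The glucuronosyltransferases of the Ugt1 locus are described first. All 8 Ugt1a genes share 1 locus on chromosome 1 (chr1:88055411-88220002, plus strand, GRCm38.p6), where each gene has its own promoter and first coding exon and is spliced to the same 4 downstream exons. The own exon encodes most of the substrate-binding part, and the shared exons encode the part that binds UDP-glucuronic acid. The 30 bases on either side of the join are shown for 4 of the genes, from GENCODE transcripts, to show why reads downstream of the join cannot be assigned to one gene. Lower case is the end of the gene's own exon, and capitals are the start of the shared exon at chr1:88215044-88215175.
Ugt1a1: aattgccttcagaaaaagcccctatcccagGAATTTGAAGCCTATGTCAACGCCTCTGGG
Ugt1a6a: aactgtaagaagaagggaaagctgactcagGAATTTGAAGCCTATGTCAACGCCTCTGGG
Ugt1a7c: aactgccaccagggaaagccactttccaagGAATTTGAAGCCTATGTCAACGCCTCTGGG
Ugt1a9: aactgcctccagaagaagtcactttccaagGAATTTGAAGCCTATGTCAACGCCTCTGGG
After the join, the 8 transcripts were identical over 1311 bases, which is between 40.6% and 59.9% of each transcript. The own exons differ between most of the genes, but those of Ugt1a6a and Ugt1a6b, and of Ugt1a2 and Ugt1a5, are alike in part, as their last 30 bases are identical. Ugt1a6a shares 71.4% of its 100-base stretches with Ugt1a6b and 55.2% with Ugt1a7c, and Ugt1a2 shares 62.9% with Ugt1a5. RSEM divides reads from the shared exons between the genes by estimate, so the level of a single Ugt1a gene is less certain than the level of the locus.

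Ugt1a7c, the most expressed gene of the locus, stood at 145, 302 and 114 CPM in mice 1, 2 and 3 of the DSS group against 278, 525 and 647 CPM in mice 1, 2 and 3 of the DSS+BV group. The groups overlapped in 1 pair of libraries, as DSS 2 lay just above DSS+BV 1. The log2 fold change was 1.37 ± 0.46 (SE, n = 3 per group), with an adjusted p of 0.345 by edgeR's quasi-likelihood test. Ugt1a1, which glucuronidates bilirubin, was at 0.84, 89.8 and 6.17 CPM in the DSS libraries and at 11.4, 138 and 328 CPM in the DSS+BV libraries. Its highest library was at 391 times its lowest, and DSS 2 lay far above DSS+BV 1, so the fold change of 2.30 on the log2 scale had an SE of 1.65. Ugt1a6a, which acts on small planar phenols, measured 15.3, 68.8 and 14.7 CPM in the DSS mice against 43.01, 165 and 252 CPM in the DSS+BV mice. Here too DSS 2 exceeded DSS+BV 1, and the log2 fold change was 2.22 ± 0.84, with an adjusted p of 0.378 by edgeR's quasi-likelihood test. Per kilobase of transcript, the means over the 6 libraries were 104 CPM for Ugt1a7c, 43.1 for Ugt1a1 and 40.5 for Ugt1a6a. Ugt1a6b, the close copy of Ugt1a6a, was at 0.38 to 1.32 CPM and had a log2 fold change of -0.46. Ugt1a2 and Ugt1a5 had at most 42.9 and 16.4 expected counts in a library, and Ugt1a9 and Ugt1a10 were at 0 in all 6 libraries.

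With all 8 genes summed to a single row, so that shared reads need not be divided between the genes, the Ugt1a locus measured 163, 462 and 136 CPM in the DSS mice against 334, 830 and 1231 CPM in the DSS+BV mice. DSS 2 again lay above DSS+BV 1. The log2 fold change of the summed row was 1.65 ± 0.63 (SE, n = 3 per group), with an unadjusted p of 0.0355 and an adjusted p of 0.380 by edgeR's quasi-likelihood test after Benjamini-Hochberg adjustment.

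The Ugt2 genes lie on chromosome 5 and glucuronidate steroids, bile acids and drugs. Ugt2b34 had the most reads, with 90.7% of the family's summed CPM, and was also the highest per kilobase (114 CPM, against 9.86 for Ugt2b5, 4.47 for Ugt2b35 and 0.93 for Ugt2b36). It measured 152, 383 and 129 CPM in the DSS mice against 374, 504 and 541 CPM in the DSS+BV mice. All DSS+BV values lay above DSS 1 and DSS 3, and DSS 2 was just above DSS+BV 1. The log2 fold change was 1.097 ± 0.43, with an adjusted p of 0.388 by edgeR's quasi-likelihood test. Ugt2b5 had the widest spread of the tested members, at 0.060, 7.83 and 0.058 CPM in the DSS mice against 0.86, 38.7 and 62.4 CPM in the DSS+BV mice. DSS+BV 2 and DSS+BV 3 stood apart from the other 4 libraries, and the fitted log2 fold change was 3.69 ± 1.85. Ugt2b36 followed the same order at lower levels, with 0, 1.24 and 0 CPM in the DSS mice against 0.59, 3.82 and 4.93 CPM in the DSS+BV mice, and a fitted log2 fold change of 2.91 ± 1.43. Its DSS 2 value again lay above DSS+BV 1. Ugt2b35 ranged from 2.21 to 24.9 CPM, with its highest value in DSS 2 and a log2 fold change of 0.97. Ugt2a1, Ugt2a2, Ugt2a3 and Ugt2b1 had few counts and were not tested, and Ugt2b38, which shares 24.2% of its 100-base stretches with Ugt2b5, was at 0 throughout.

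Ugt8a, which makes galactosylceramide, differed from the other glycosyltransferase genes. It had 5, 4 and 10 counts in mice 1, 2 and 3 of the DSS group against 5, 206 and 347 counts in mice 1, 2 and 3 of the DSS+BV group. These correspond to 0.30, 0.25 and 0.58 CPM in the DSS mice against 0.33, 13.1 and 21.9 CPM in the DSS+BV mice. The groups overlapped because DSS+BV 1 was at the DSS level, while DSS 2, unlike for the Ugt1a and Ugt2 genes, was at the lowest level of all. The filter removed Ugt8a, since only 2 libraries held more than 10 counts. With every gene tested, the log2 fold change was 4.96 ± 1.29 and the adjusted p was 0.326 by edgeR's quasi-likelihood test. DESeq2 gave 4.99 ± 1.07 with an adjusted p of 0.000496, which rests on DSS+BV 2 and DSS+BV 3.

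**Figure D2:**
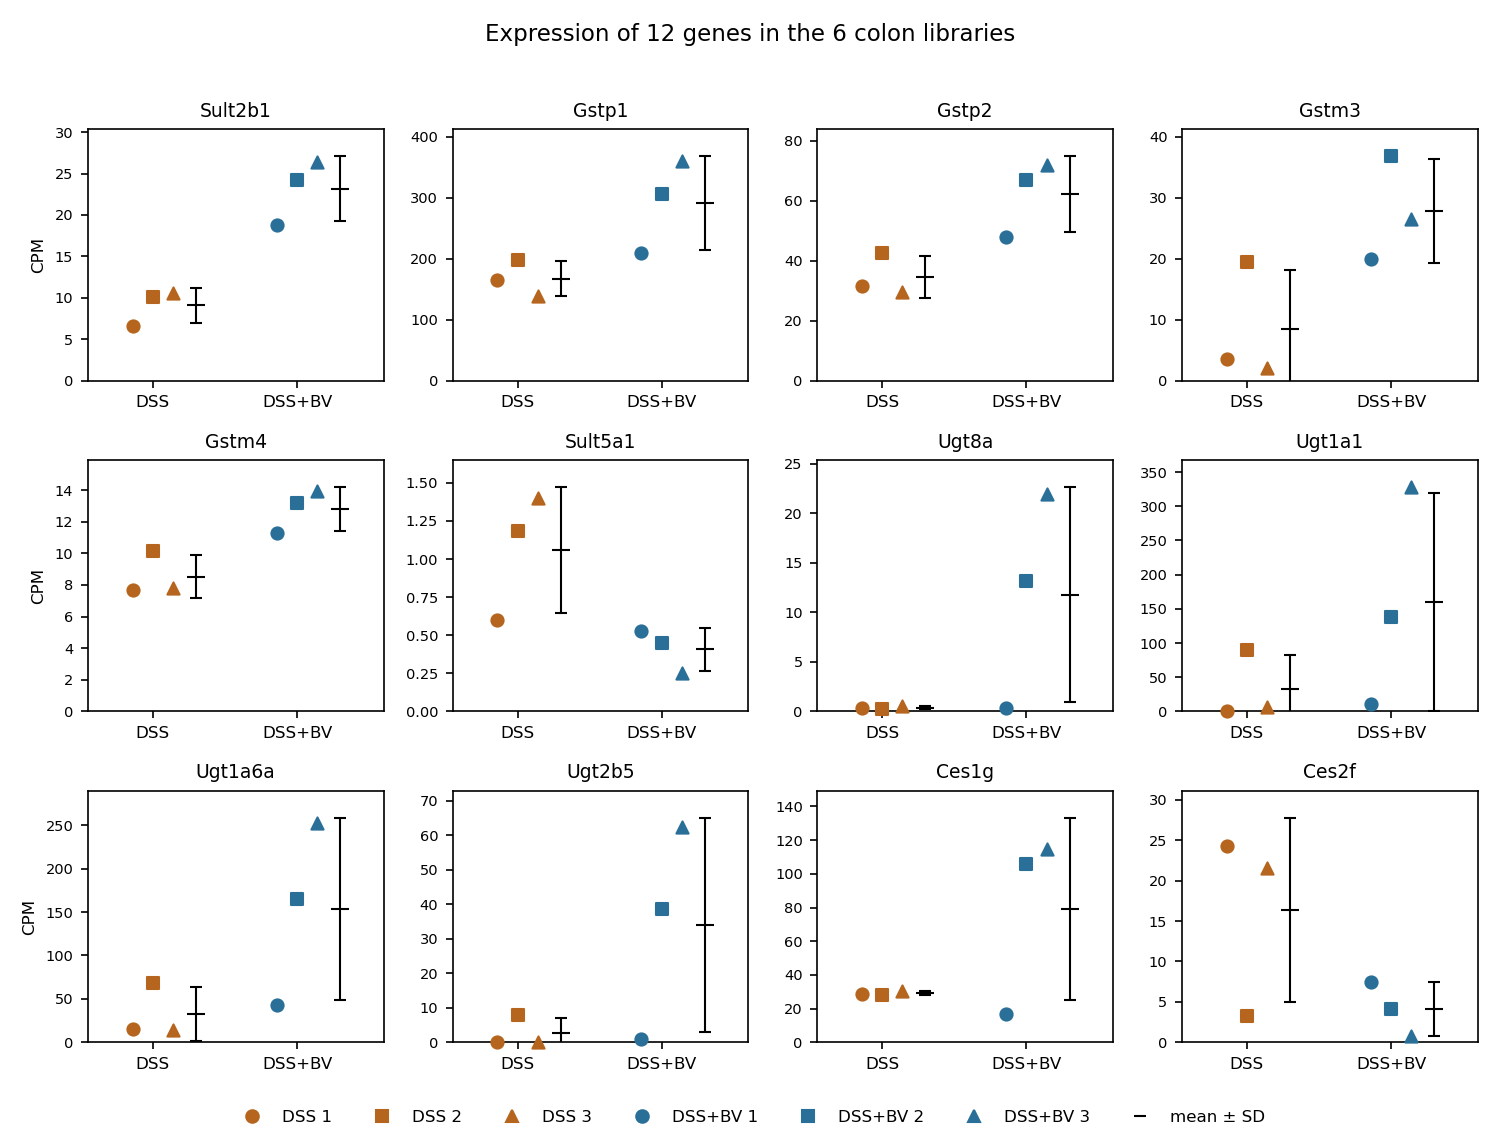
CPM of 12 genes in the 6 colon libraries, with 1 panel per gene, brown for DSS, blue for DSS+BV, a marker shape per replicate number, and black bars for the group mean ± SD (n = 3), drawn from 0 upward. Sult2b1, Gstp1, Gstp2, Gstm3 and Gstm4 have every DSS+BV value above every DSS value, Sult5a1 the reverse, and in Ugt8a and Ces1g only DSS+BV 2 and DSS+BV 3 lie above the DSS libraries.

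Among the sulfotransferases, Sult2b1, which sulfates cholesterol and other hydroxysteroids, had the smallest p of all members. It measured 6.59, 10.1 and 10.54 CPM in the DSS mice against 18.8, 24.3 and 26.4 CPM in the DSS+BV mice. The groups did not overlap, and in contrast to most members DSS 2 was level with DSS 3 and DSS+BV 1 was well above every DSS library. The mean was 9.07 ± 2.16 CPM for the DSS mice against 23.2 ± 3.93 CPM for the DSS+BV mice (SD, n = 3 per group). The log2 fold change was 1.35 ± 0.25 (SE), with an unadjusted p of 0.00117 and an adjusted p of 0.175 by edgeR's quasi-likelihood test after Benjamini-Hochberg adjustment. DESeq2 gave an adjusted p of 0.000256 for Sult2b1 and called it.

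The other sulfotransferases did not share 1 direction. Sult1b1, which acts on phenols and thyroid hormones and took 34.4% of the family's summed CPM without correction for length, measured 152, 154 and 238 CPM in the DSS mice against 226, 218 and 134 CPM in the DSS+BV mice. The groups overlapped fully, and the log2 fold change was 0.09 ± 0.27. Sult1d1, a catecholamine sulfotransferase separated from Sult1b1 by 16454 bases of chromosome 5, measured 35.1, 159 and 77.3 CPM in the DSS mice against 109, 351 and 324 CPM in the DSS+BV mice. Its log2 fold change was 1.53 ± 0.64, with an unadjusted p of 0.0489 by edgeR's quasi-likelihood test, and DSS 2 again exceeded DSS+BV 1. Sult1a1, the phenol sulfotransferase, measured 29.5, 189 and 44.3 CPM in the DSS mice against 161, 164 and 152 CPM in the DSS+BV mice, so that only DSS 1 and DSS 3 were low. Sult1c2 ranged from 19.0 to 63.7 CPM, highest in DSS 2, with a log2 fold change of 0.12. The 2 members with an unadjusted p under 0.05 on the lower side were both sulfotransferases. Sult5a1 measured 0.60, 1.18 and 1.40 CPM in the DSS mice against 0.53, 0.45 and 0.25 CPM in the DSS+BV mice, without overlap, with a log2 fold change of -1.36 ± 0.50 and an adjusted p of 0.371 by edgeR's quasi-likelihood test. Sult4a1, known from neurons, measured 1.86, 4.60 and 11.01 CPM in the DSS mice against 0.92, 2.17 and 2.40 CPM in the DSS+BV mice. The 12 tested markers of enteric glia and neurons were all lower in DSS+BV, with sums from 73.5 to 302 CPM among DSS mice and from 46.9 to 58.7 CPM among DSS+BV mice, and their part in the Sult4a1 values was not tested. Sult1c1, Sult1e1 and Sult6b2 had at most 3 counts in a library. The family median of 0.12 became -0.32 when the libraries were scaled on the epithelium markers instead of all genes, a scaling that moved the median of all tested genes from -0.01 to -0.49. Relative to that shift, the family median was 0.18.

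In 16 tested members DSS 1 and DSS 3 were lowest, DSS 2 and DSS+BV 1 between, and DSS+BV 2 and DSS+BV 3 highest. Of the 14 of these with a promoter window, 3 (Ugt1a1, Ugt1a6a and Sult1d1) carry GTTAAT, the core of the site bound by the hepatocyte nuclear factor 1 (HNF1) transcription factors, before their start. The other 11, Ugt1a7c, Ugt2b34, Ugt2b36, Ugt2b5, Gsta1, Gstm3, Gstm4, Gstp1, Gstp2, Gsto1 and Gstk1, do not, and 2 of 22 tested members with a window and another order do. The 3 were chosen for display after their values were seen. The 16 were picked by their values, and the share of all tested genes in that order was not counted. The 250 bases before the annotated start are shown, from RefSeq (GRCm38.p6), with the GTTAAT letters on either strand in capitals. The windows are chr1:88211709-88211958 (plus strand) for Ugt1a1, chr1:88134559-88134808 (plus strand) for Ugt1a6a and chr5:87569007-87569256 (minus strand) for Sult1d1.
Ugt1a1: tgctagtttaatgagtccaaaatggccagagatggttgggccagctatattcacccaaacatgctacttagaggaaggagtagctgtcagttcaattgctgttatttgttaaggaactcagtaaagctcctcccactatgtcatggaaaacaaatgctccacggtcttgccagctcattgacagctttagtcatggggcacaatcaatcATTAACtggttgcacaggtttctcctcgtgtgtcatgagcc
Ugt1a6a: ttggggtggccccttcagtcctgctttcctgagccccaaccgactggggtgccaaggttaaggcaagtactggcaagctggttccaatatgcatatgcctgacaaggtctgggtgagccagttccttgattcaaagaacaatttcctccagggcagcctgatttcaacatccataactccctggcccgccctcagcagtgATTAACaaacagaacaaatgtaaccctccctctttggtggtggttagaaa
Sult1d1: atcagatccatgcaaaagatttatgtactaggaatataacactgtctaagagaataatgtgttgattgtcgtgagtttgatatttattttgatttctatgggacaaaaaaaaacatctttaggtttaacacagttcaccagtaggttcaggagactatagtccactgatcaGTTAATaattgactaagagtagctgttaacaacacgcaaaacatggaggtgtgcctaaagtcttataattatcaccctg
The letters begin 41 bases before the start in Ugt1a1 and 50 bases before it in Ugt1a6a, both on the reverse strand, and 79 bases before it in Sult1d1. Windows were at hand for 59 of the 67 members. GTTAAT was found on either strand in 10 of the 59 (16.9%), against 7.49% of 27025 genes with a window. The other 7 were Ugt1a9, Ugt1a10, Ugt2a3, Sult1a1, Gsta3, Ces3b and Ces5a, of which Ugt1a9, Ugt1a10, Ugt2a3, Ces3b and Ces5a had 0 to 11 counts in a library. The full palindromic HNF1 site, GTTAAT followed by 1 base and ATTAAC, contains that core and was in 0 members (0.0111% of genes), as was the HNF4 direct repeat of AGGTCA spaced by 1 base (0.0407%). TGACNNNGC, the core of the antioxidant response element, was in 3 members (5.08%, against 11.5% of genes): Gsta3, Gstm5 and Gstm7. The CDX site TTTATTG was in Ugt2a3 alone (1.69%, against 4.89%). The TATA box letters TATAAA were in 10 members (16.9%, against 14.3%). A match shows only that the letters are present in the window.

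Of the glutathione S-transferases, the pi class, which conjugates electrophiles and binds stress kinases, held 2 of the members without overlap. Gstp1 measured 165, 197 and 139 CPM in the DSS mice against 209, 305 and 360 CPM in the DSS+BV mice. Gstp2, its neighbour 2375 bases away on chromosome 19, measured 31.5, 42.5 and 29.6 CPM in the DSS mice against 48.1, 66.8 and 72.1 CPM in the DSS+BV mice. In both genes the lowest DSS+BV library, DSS+BV 1, lay above the highest DSS library, DSS 2, by a small margin. The log2 fold changes were 0.80 ± 0.24 for Gstp1 and 0.85 ± 0.22 for Gstp2 (SE, n = 3 per group), with adjusted p of 0.325 and 0.281 by edgeR's quasi-likelihood test. The transcripts share 52.8% of the 100-base stretches of Gstp1, so reads can be divided between them, and the rows summed gave 0.81 ± 0.24 with an adjusted p of 0.320 by edgeR's quasi-likelihood test. Gstp3 lies beside them, shares no 100-base stretch with them, and was at 3.22 to 9.88 CPM with a log2 fold change of -0.41.

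The mu class comprises 7 genes in 1 cluster on chromosome 3, and all were tested. Gstm1, the most abundant, measured 47.9, 167 and 71.7 CPM in the DSS mice against 137, 169 and 133 CPM in the DSS+BV mice. DSS 2 was within the DSS+BV range, and the log2 fold change was 0.62 ± 0.44. Gstm3 measured 3.59, 19.5 and 2.04 CPM in the DSS mice against 19.9, 36.8 and 26.6 CPM in the DSS+BV mice. Its groups did not overlap, but DSS 2 and DSS+BV 1 were nearly equal, and the log2 fold change of 1.73 ± 0.81 had an adjusted p of 0.440 by edgeR's quasi-likelihood test. Gstm4 measured 7.66, 10.1 and 7.80 CPM in the DSS mice against 11.3, 13.2 and 13.97 CPM in the DSS+BV mice, without overlap, with a log2 fold change of 0.59 ± 0.21 and an adjusted p of 0.361 by edgeR's quasi-likelihood test. Gstm2, Gstm6 and Gstm7 had log2 fold changes of 0.35, 1.02 and 0.43, with overlapping groups. Gstm5 stood at 17.9 to 32.1 CPM in all libraries, with a log2 fold change of -0.04.

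In the alpha class, Gsta4, which conjugates 4-hydroxynonenal, a product of lipid peroxidation, measured 26.4, 55.5 and 23.5 CPM in the DSS mice against 27.0, 59.0 and 62.5 CPM in the DSS+BV mice. DSS+BV 1 was level with DSS 1 and DSS 3, DSS 2 was level with DSS+BV 2, and the log2 fold change was 0.49 ± 0.44. Gsta1 measured 9.04, 25.6 and 9.61 CPM in the DSS mice against 23.0, 46.6 and 47.9 CPM in the DSS+BV mice, with a log2 fold change of 1.41 ± 0.49 and an adjusted p of 0.356 by edgeR's quasi-likelihood test. It shares 19.8% of its 100-base stretches with Gsta2, which had 37.9 expected counts in DSS+BV 3 and at most 3.21 in any other library. Gsta3 ranged from 5.36 to 21.9 CPM with a log2 fold change of 0.67.

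The theta and omega classes varied least by median standard deviation of log2 CPM, at 0.30 and 0.25. Gstt3 measured 29.0, 49.1 and 26.0 CPM in the DSS mice against 42.0, 40.8 and 56.0 CPM in the DSS+BV mice, and its groups overlapped. Gstt1 and Gstt2 were at 19.8 to 25.3 CPM and 20.2 to 35.0 CPM, with log2 fold changes of 0.03 and 0.32, and Gstt4 had at most 1 count in a library. Gsto1, a glutathione-dependent reductase, measured 291, 300 and 230 CPM in the DSS mice against 297, 354 and 381 CPM in the DSS+BV mice, with a log2 fold change of 0.33 ± 0.17. Here DSS 1 and DSS 2 were level with DSS+BV 1. Gsto2, next to Gsto1 on chromosome 19, had 3 to 11 counts. Gstk1, the kappa enzyme of mitochondria and peroxisomes, measured 30.1, 51.4 and 34.9 CPM in the DSS mice against 39.3, 65.6 and 65.8 CPM in the DSS+BV mice, with overlap in DSS 2. Its log2 fold change was 0.55 ± 0.28. The medians of the theta and omega classes, 0.32 and 0.33, became -0.12 and -0.18 when the libraries were scaled on the epithelium markers, which is 0.38 and 0.31 relative to the median of all tested genes under that scaling.

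The carboxylesterases lie in clusters on chromosome 8, and 10 of the 18 were tested. Ces2c, the most abundant, measured 84.1, 390 and 244 CPM in the DSS mice against 142, 406 and 707 CPM in the DSS+BV mice. DSS 2 and DSS+BV 2 were level, and the log2 fold change was 0.81 ± 0.70. Its neighbours Ces2a, Ces2b and Ces2e had log2 fold changes of 1.28, 1.03 and 0.40 and SEs between 0.59 and 0.78, with overlapping groups. Ces2e measured 112, 362 and 257 CPM in the DSS mice against 119, 337 and 508 CPM in the DSS+BV mice. Ces2f, 12682 bases beyond Ces2e, ran in the opposite order, at 24.3, 3.29 and 21.5 CPM in the DSS mice against 7.52, 4.08 and 0.76 CPM in the DSS+BV mice. DSS 2 was the low DSS library for Ces2f and DSS+BV 3 the lowest of all, and the log2 fold change was -1.99 ± 0.94, with an adjusted p of 0.442 by edgeR's quasi-likelihood test. Ces2g, 465 bases beyond Ces2f, measured 34.7, 26.2 and 24.8 CPM in the DSS mice against 35.7, 23.0 and 8.60 CPM in the DSS+BV mice, with a log2 fold change of -0.35. Ces2f and Ces2g were the only tested carboxylesterases with a negative log2 fold change, and Ces2h, next in the row, had at most 4 counts.

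In the Ces1 cluster, Ces1g, which acts on lipids in liver and intestine, measured 28.9, 28.0 and 30.5 CPM in the DSS mice against 16.9, 106 and 115 CPM in the DSS+BV mice. The DSS mice were nearly equal, and DSS+BV 1 lay below them. The log2 fold change was 1.44 ± 0.63, with an adjusted p of 0.410 by edgeR's quasi-likelihood test. Ces1e measured 0.12, 16.2 and 0.93 CPM in the DSS mice against 5.74, 11.7 and 13.97 CPM in the DSS+BV mice, with DSS 2 the highest of all 6 libraries and a log2 fold change of 0.86 ± 1.32. Ces1f and Ces1d, a triacylglycerol hydrolase, had log2 fold changes of 1.50 ± 0.71 and 0.32 ± 0.54, with overlapping groups. Ces1a, Ces1b, Ces1c, Ces1h, Ces3a, Ces3b and Ces5a had at most 15 counts in a library and were not tested. Ces1c is known as the esterase of mouse plasma, and Ces3a and Ces3b from liver.

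**Figure D3:**
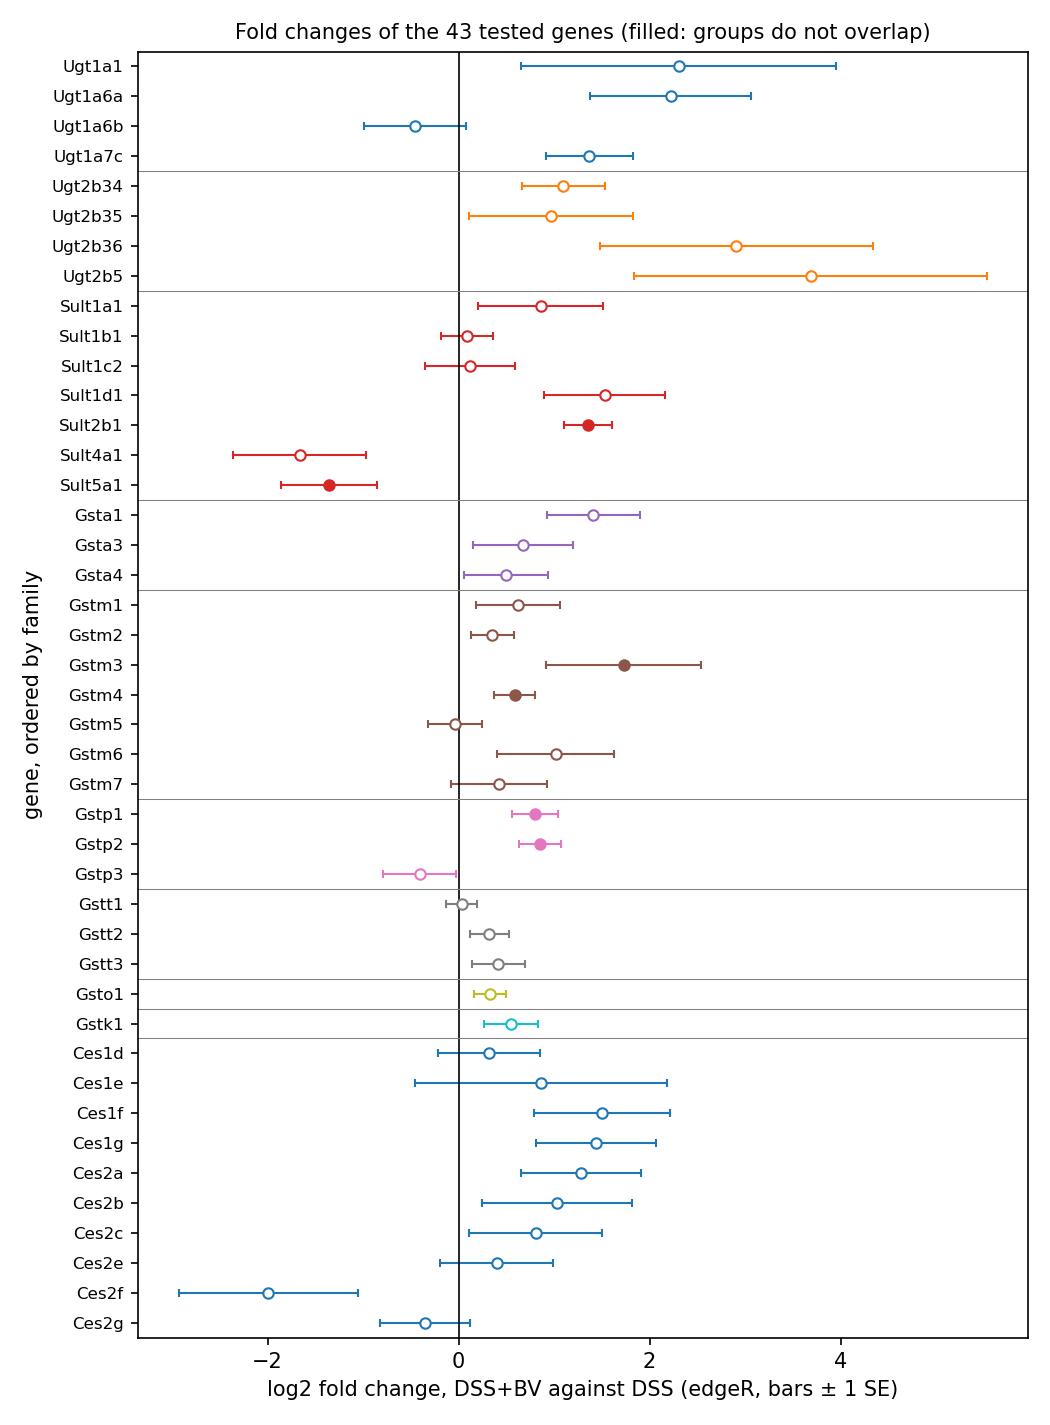
Log2 fold change (DSS+BV against DSS) of the 43 tested genes by edgeR, with bars of ± 1 SE, rows ordered by family, and filled points for genes whose groups do not overlap. Most points lie right of 0, from -1.99 for Ces2f to 3.69 for Ugt2b5, the widest bars belong to Ugt2b5 and Ugt1a1, and the points of Sult1b1, Sult1c2, Gsta4, Gstm2, Gstt1, Gstt2, Gstt3, Gsto1, Ces1d and Ces2e lie left of 0 when libraries are scaled on the epithelium markers.

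Per kilobase of transcript and averaged over the 6 libraries, the most abundant members were Gstp1 at 279 CPM, Gsto1 at 261, Ces2c at 167, Ugt2b34 at 114, Ces2e at 105, Ugt1a7c at 104, Gstm1 at 94.0 and Sult1a1 at 90.0. The order of the first 2 differed between the groups, with Gsto1 at 232 and Gstp1 at 204 CPM per kilobase in DSS, and Gstp1 at 355 and Gsto1 at 291 in DSS+BV. The members from Ugt2b34 to Sult1a1 differed from each other by less than their spread between mice. Summed over each family, Ugt1a was at 253 ± 181 CPM for the DSS mice against 798 ± 449 CPM for the DSS+BV mice, Ugt2 at 235 ± 158 and 530 ± 124, Sult at 410 ± 168 and 676 ± 122, and Ces at 762 ± 374 and 1261 ± 749 (SD, n = 3 per group). Gstp was at 209 ± 35.2 and 359 ± 87.4 CPM, the one family of more than 1 gene in which every DSS+BV sum lay above every DSS sum. All 67 genes together measured 1707, 3696 and 2156 CPM in the DSS mice against 2813, 4888 and 5893 CPM in the DSS+BV mice, with DSS 2 again above DSS+BV 1.

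**Figure D4:**
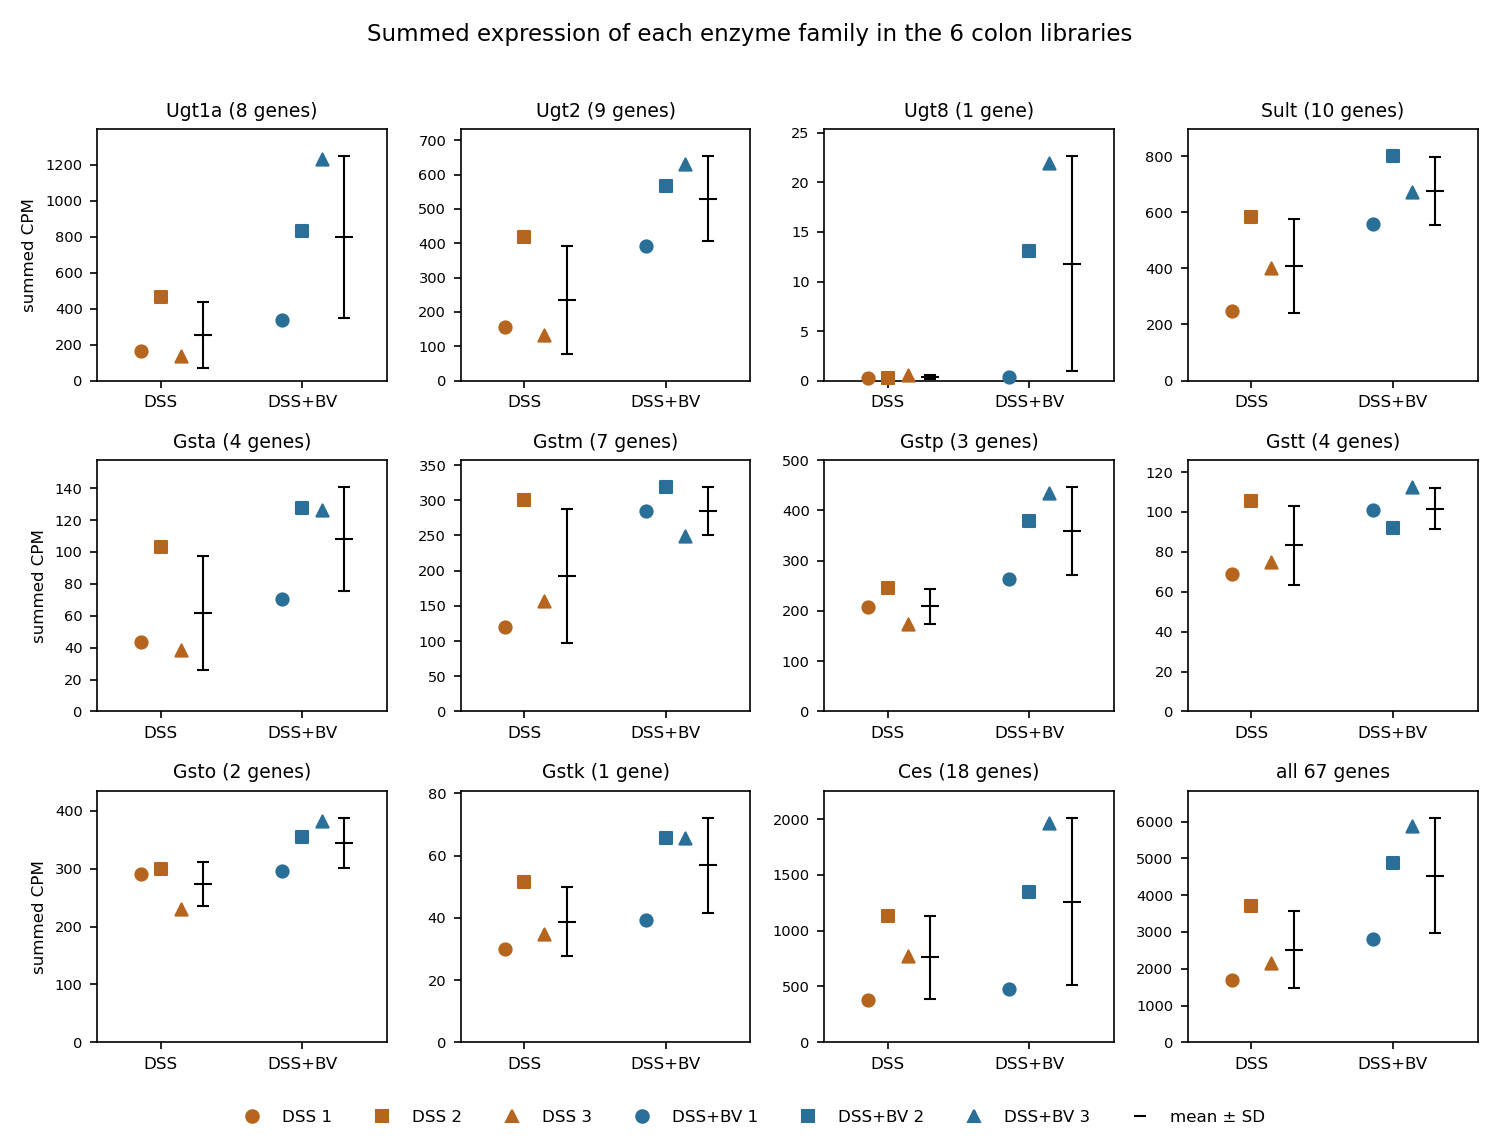
Summed CPM of each family and of all 67 genes in the 6 colon libraries, with brown for DSS, blue for DSS+BV, a marker shape per replicate number, and black bars for the group mean ± SD (n = 3). DSS 2 is the highest DSS library in every panel except Ugt8, DSS+BV 1 is the lowest DSS+BV library except in Gstm and Gstt, and the Gstp panel shows no overlap between the groups.

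The weight of 2 libraries in these comparisons was measured by leaving each library out in turn. Without DSS 2, 28 of 46 tested members (60.9%) had every DSS+BV value above every DSS value, beside 18.4% of all tested genes. Without DSS+BV 1, 22 of 47 (46.8%) did, beside 15.8%. Without any of the other 4 libraries the number was between 5 and 7 (11.1% to 15.9%), beside 7.64% to 18.3% of all tested genes. These shares are a description, since DSS 2 and DSS+BV 1 are the libraries in which the groups overlap. Without DSS+BV 1, edgeR called Ugt8a and Ces1g, beside 0.0269% of all tested genes called higher. That library is the DSS+BV mouse in which both genes were low, and Ugt8a passed the filter there through the 2 libraries in which it was high, so neither call counts as a test of the groups. In these libraries the epithelium markers summed to 16405 CPM (DSS 2) and 21221 CPM (DSS+BV 1). The 15 markers of the absorptive colonocyte list summed to 3178, 7001 and 6822 CPM in the DSS mice against 4830, 19781 and 18174 CPM in the DSS+BV mice. Car1 held much of the sums in DSS+BV 2 and DSS+BV 3. It measured 825, 1041 and 939 CPM in the DSS mice against 924, 10453 and 8702 CPM in the DSS+BV mice. Of the 15 markers, 12 were higher in DSS+BV, and none was at 0. The 3 lower were Car4, Aqp8 and Ceacam20, with log2 fold changes of -1.10, -1.03 and -0.58. Cyp2c55 in that list, a cytochrome P450 of the colon, measured 8.32, 833 and 64.3 CPM in the DSS mice against 133, 2714 and 3776 CPM in the DSS+BV mice, the same order of libraries as Ugt1a1. Hoxb6, of the position list, measured 1.08, 2.18 and 3.32 CPM in the DSS mice against 1.06, 34.2 and 40.0 CPM in the DSS+BV mice, the same high pair as Ugt8a and Ces1g. Of the 16 tested position genes, 9 were higher and 7 lower in DSS+BV, their sums were 380 to 578 and 376 to 671 CPM, and Hoxd12 was at 0 in DSS 2 and DSS+BV 3. Of 13 small intestine markers 9 were tested, 6 higher and 3 lower in DSS+BV. The list summed to 218, 533 and 310 CPM in the DSS mice against 283, 657 and 895 CPM in the DSS+BV mice. Fabp2 in that list measured 5.45, 229 and 19.8 CPM against 44.7, 270 and 303 CPM, the same order of libraries as Ugt1a1. The part of epithelium, colonocyte, small intestine or position genes in the values of the enzymes was not tested.

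**Figure D5:**
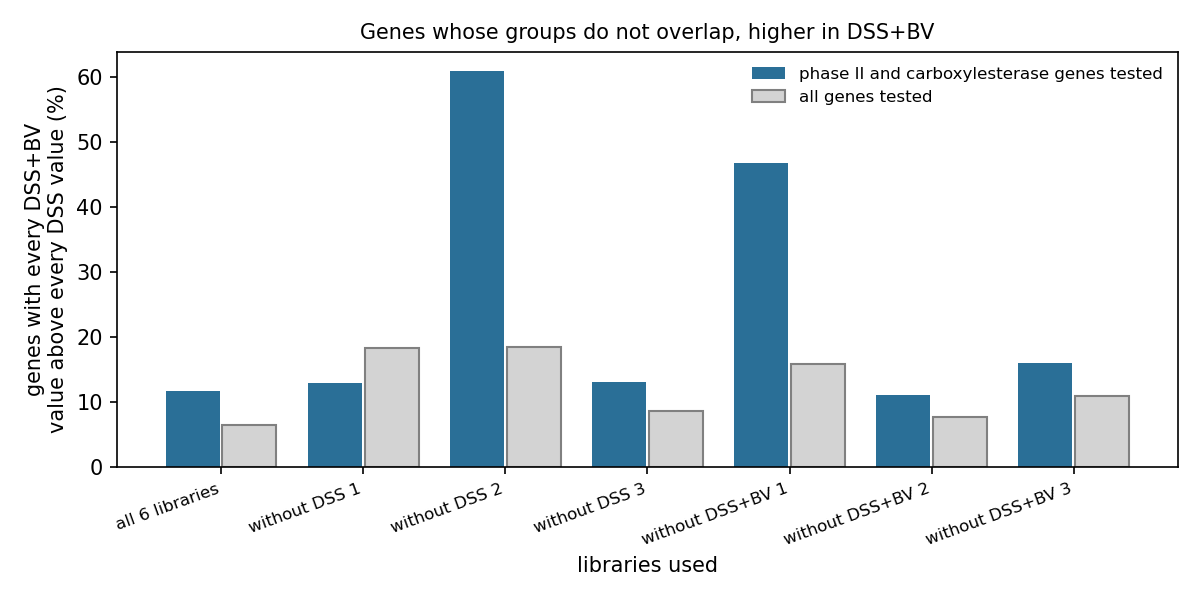
Share of genes whose DSS+BV values all lie above all DSS values, with all 6 libraries and with each library left out, for the tested phase II and carboxylesterase genes (blue) and all tested genes (grey), in percent. The blue bar is 11.6% with all libraries, 60.9% without DSS 2 and 46.8% without DSS+BV 1, while the grey bars stay between 6.37% and 18.4%.

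Genes that supply or surround these enzymes were taken from 9 lists of 154 genes, of which 142 were tested. None was called by edgeR's quasi-likelihood test after Benjamini-Hochberg adjustment, beside 0.0892% of all tested genes called lower and 0% higher. At an unadjusted p under 0.05 by that test, 12 of the 142 were lower, beside 9.12% of all tested genes. On the higher side there were 11, beside 3.4%. The median log2 fold change was 0.22. Of the 142, 93 were higher and 49 lower in DSS+BV, but 37 higher and 105 lower when libraries were scaled on the epithelium markers, where the median was -0.28, or 0.22 above that of all tested genes. The counts in brackets below carry the shift of all tested genes to -0.49. Relative to it, list medians were 0.41 for UDP-glucuronic acid supply, 0.26 for sulfate supply, 0.045 for glutathione synthesis and -0.099 for other glutathione-using enzymes. They were 0.36 for NRF2 targets, 0.34 for transcription regulators, 0.064 for conjugate efflux, 0.47 for other hydrolases and 0.17 for other transferases. Among 6 genes of UDP-glucuronic acid supply, 4 were higher in DSS+BV (3 with the epithelium scaling). Ugdh, which makes UDP-glucuronic acid, measured 70.7, 313 and 92.0 CPM in the DSS mice against 172, 610 and 683 CPM in the DSS+BV mice, the order of libraries seen for Ugt1a1, with a log2 fold change of 1.62 ± 0.72. Slc35d1, which carries UDP-glucuronic acid into the endoplasmic reticulum, and Slc35a3, another nucleotide sugar transporter, had log2 fold changes of 1.40 ± 0.55 and 0.53 ± 0.26.

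Of 12 tested genes of sulfate supply and desulfation, 9 were higher (2 with the epithelium scaling). Papss2, which makes the sulfate donor PAPS, measured 158, 335 and 149 CPM in the DSS mice against 283, 642 and 660 CPM in the DSS+BV mice, with a log2 fold change of 1.30 ± 0.44 and overlap through DSS 2. Papss1, its paralogue, measured 55.0, 106 and 53.7 CPM in the DSS mice against 117, 125 and 116 CPM in the DSS+BV mice, without overlap, with a log2 fold change of 0.74 ± 0.28. Tpst1, a protein tyrosine sulfotransferase of the Golgi, was lower without overlap, with -0.94 ± 0.25. Adjusted p-values of the 3 genes were between 0.298 and 0.378 by edgeR's quasi-likelihood test.

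Of 19 genes of glutathione synthesis and turnover, 12 were higher and 7 lower (3 and 16 with the epithelium scaling), and the 3 with the smallest p, Ggt5, Ggt7 and Slc7a11, had log2 fold changes of -1.08, -1.08 and -1.04. Of 24 other glutathione-using enzymes, 16 were lower (24 with the epithelium scaling), with Ptges, Gpx3 and Gpx7 at -1.25, -1.19 and -0.71, all without overlap. In the list of NRF2 targets and regulators, 16 of 20 genes were higher (7 with the epithelium scaling), with Nfe2l2, which encodes NRF2, at 0.60 ± 0.21 and Tkt at 0.65 ± 0.24, but the smallest p belonged to Hmox1, the inducible haem oxygenase, at 37.6, 31.2 and 44.5 CPM in the DSS mice against 14.5, 11.2 and 10.2 CPM in the DSS+BV mice. Its groups did not overlap, with a log2 fold change of -1.66 ± 0.21 and an adjusted p of 0.0833 by edgeR's quasi-likelihood test. DESeq2 called 4 of the pathway genes, Hmox1, Ggt5, Ptges and Gpx3, all lower, beside 1.73% of 16155 genes called lower. The 14 tested markers of macrophages and monocytes were all lower in DSS+BV, summing to between 957 and 2225 CPM among DSS mice and between 607 and 1522 CPM among DSS+BV mice. The 12 fibroblast markers were all lower as well, with sums of 4176 to 4380 and 1537 to 2255 CPM. Their part in the values of Hmox1, Ggt5, Ptges and Gpx3 was not tested.

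Of 22 transcription regulators of conjugation genes, 18 were higher (9 with the epithelium scaling). Hnf4a measured 514, 708 and 525 CPM in the DSS mice against 803, 1019 and 908 CPM in the DSS+BV mice, without overlap, with a log2 fold change of 0.64 ± 0.19 and an adjusted p of 0.329 by edgeR's quasi-likelihood test. Pparg and Nr1h4, the bile acid receptor, had log2 fold changes of 1.27 ± 0.40 and 0.67 ± 0.30 and overlapping groups. Among 16 genes of conjugate efflux, 8 were higher and 8 lower (4 and 12 with the epithelium scaling). Slc51a, a subunit of a basolateral bile acid and steroid conjugate exporter, measured 0.12, 7.34 and 0.70 CPM in the DSS mice against 0.066, 105 and 218 CPM in the DSS+BV mice, so that DSS+BV 1 was the lowest library of all. Abcc3, which exports glucuronides, had a log2 fold change of 0.68 ± 0.30 and Abcb1b, a drug exporter, of -1.20 ± 0.50, the latter without overlap. Of 15 tested other hydrolases 13 were higher (7 with the epithelium scaling), and the smallest p belonged to Faah, Pon2 and Pon3 at 0.85, 0.68 and 0.61. Of 8 tested other transferases 5 were higher (2 with the epithelium scaling), and the smallest p belonged to Nnmt, Hnmt and Tpmt at -0.90, -0.97 and 0.71.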

How the data were processed

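Colon RNA of 6 mice was analysed, 3 per group. Libraries were made with the SMARTER mRNA-Seq kit. The submitters' processing notes name HISAT2 2.1.0, Bowtie2 2.2.5, RSEM 1.2.8 and the build GRCm38.p6. The authors deposited expected counts, RSEM's estimates for each gene, unscaled. The annotation behind them is not given in the sources used here.

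Expected counts were rounded. Genes were filtered with filterByExpr (minimum count 10, minimum total 15), scaled by TMM and tested by edgeR (4.0.16, R 4.3.3) using its quasi-likelihood F-test; p-values of the 14579 genes were adjusted after Benjamini and Hochberg. Calls followed the thresholds of the study: adjusted p below 0.05, and a log2 fold change above 1 in size. The study used DESeq2, which is the alternative here (version 1.42.0). Log2 CPM used a prior count of 2. Expected counts that were not whole were found in 19 of the 67 members. Library totals of 15293276 to 17254343 limit low genes, and p-values set the difference between the groups against the estimated spread between these mice. The tests were also run on simulated counts, drawn from the means, dispersions and library sizes of these data. Alternatives were RLE, upper-quartile and epithelium-marker factors, 2 other filters, a robust fit, the replicate number as a block, no fold threshold, each library left out and, chosen after seeing the data, Ugt1a and Gstp rows summed.

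The members, gene lists and marker lists were chosen with earlier results of these data known. Values in every library are given for the most abundant member of each family, the members without overlap and the 5 with the widest spread; a few neighbours and the calls of DESeq2 and of the fits without a library were added after their values were seen. Of each pathway list, up to 3 genes with the smallest p are named. Gene positions and promoter windows came from RefSeq (GRCm38.p6) for 67 and 59 members, and transcripts from GENCODE vM21. Stretches of 100 bases were used for shared sequence. Python 3.11.15 and matplotlib 3.10.9 made the figures.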

Additional observations from a re-analysis of the deposited data

How the results depend on the processing

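Over 17 alternatives, 642 values of the 43 tested genes were recomputed. The sign was opposite in 26, and 3 passed an adjusted p of 0.05: Sult2b1 and Gstp2 with DESeq2, and Ces1g without DSS+BV 1, the DSS+BV library in which it was lowest. DESeq2 called 280 genes lower and 45 higher, 2 phase II genes higher and 4 pathway genes lower, against 13, 0, 0 and 0 with edgeR. With 10 counts required in every library, 0 members lay lower without overlap.

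Scaling on the epithelium list, which sets the epithelium markers equal between libraries, called 127 of 14579 tested genes lower. Of the 142 tested pathway genes it called 1 lower. It left 2 members higher and 3 lower without overlap (beside 0.322% and 29.7% of all tested genes), and 26 of the 43 higher. The family medians of log2 fold change became 0.10 for Gstm, 0.28 for Gstp, -0.12 for Gstt, -0.18 for Gsto and 0.052 for Gstk. Single values turned to -0.32 for Sult1c2, -0.34 for Sult1b1, -0.089 for Gstm2, -0.42 for Gstt1, -0.18 for Gsto1, -0.097 for Ces2e, -0.17 for Ces1d, -0.12 for Gstt2, -0.058 for Gstt3 and -0.030 for Gsta4. With upper-quartile factors Gstt1 was at -0.020. The epithelium scaling moved the median of all tested genes from -0.01 to -0.49, and the sign changes of single genes were not tested beyond that shift.

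With 1 library left out, the number of genes called was 0 to 3 lower and 0 to 4 higher, and that of members called higher 0 to 2. The 2 came without DSS+BV 1, beside 0.0269% of all tested genes. Members without overlap numbered 5 to 28 higher, beside 7.64% to 18.4% of all tested genes. On the lower side they numbered 1 to 3, beside 12.7% to 20.5%. The medians ranged from 0.40 (without DSS 1) to 1.10 (without DSS 2) for all tested members, from 1.16 to 2.64 for Ugt1a, from 1.57 to 5.75 for Ugt2, from -0.023 to 0.93 for Sult, from 0.32 to 1.50 for Gsta, from 0.31 to 1.10 for Gstm, from 0.62 to 1.01 for Gstp, from 0.18 to 0.54 for Gstt, from 0.22 to 0.44 for Gsto, from 0.40 to 0.82 for Gstk and from 0.12 to 1.39 for Ces. The Ugt2 median of 5.75 and the 28 members came without DSS 2, and the Ces median of 0.12 without DSS+BV 3. The sign was not kept for 8 tested members, whose log2 fold changes ranged from -0.17 to 0.93 for Sult1c2, from -0.032 to 0.33 for Sult1b1, from -0.057 to 0.11 for Gstt1, from -0.24 to 0.13 for Gstm5, from -0.84 to 0.042 for Ces2g, from -0.092 to 0.80 for Ces2e, from -0.21 to 0.86 for Ces1d and from -0.043 to 1.69 for Ces2b.

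Same-numbered DSS and DSS+BV libraries had correlations of deviations of 0.27, 0.25 and -0.30, against -0.57 to 0.48 for differing numbers. These values do not show that the numbers pair the mice, and 3 libraries per group are too few to exclude it. With the number as a replicate block, edgeR called 0 genes lower in place of 13, members called stayed at 0, and the median of tested members was 0.78.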
